A study of Mus musculus with 14 samples.

Results

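Type I interferon-stimulated genes were followed across all 14 libraries of a mouse T helper 2 (Th2) cell series. The group holds 35 genes, chosen by name with earlier results of these data known. All 35 matched a row among the 22598 genes of each count table. Naive CD4 T cells were taken from the spleens of C57BL/6J mice, sorted, activated and driven toward the Th2 type in culture, and total RNA was sequenced. Cells lacking Ago1, Ago3 and Ago4 together (KO) at day 7 gave 4 libraries, wild-type (WT) cells at day 7 gave 4, KO cells at day 14 gave 3 and WT cells at day 14 gave 3. All 4 groups had the same Th2 treatment, so an unpolarized culture is not among the groups compared, and no group was given interferon or virus according to the labels. The series text names littermate KO and WT mice as the source. Nothing in the labels tells if replicate libraries stem from different animals or cultures, so p-values measure only the spread between these libraries, which may be technical.

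Type I interferons are secreted when a cell senses foreign or misplaced nucleic acid. They bind a receptor made of the IFNAR1 and IFNAR2 chains, whose kinases JAK1 and TYK2 phosphorylate transcription factors such as STAT2. STAT2 and IRF9 are part of the complex ISGF3, which binds the interferon-stimulated response element (ISRE) in promoters and turns on a broad antiviral programme. IRF7, itself a product of that programme, drives further interferon transcription. In CD4 T cells the same programme is known to respond to interferon from the cells themselves or from neighbours.

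The promoters of the group were compared in the RefSeq table for GRCm38.p6, which gives 250 bases before to 50 after a gene's start. A window was given for 26 of the 35 genes. The ISRE was searched on both strands as GAAA, any 2 bases and GAAA again, with overlapping matches counted. It stood in a window of 13 of these 26 genes, against 1079 of all 27025 genes of the table (3.99%). The 4 windows printed here hold more than 1 match each and are shown because they show how the element repeats, with the matches in capitals and each read 5′ to 3′ along the gene. Isg15 lies on the minus strand at chr4:156200769-156201068 and holds 3 overlapping matches, Ifit1 on the plus strand at chr19:34640639-34640938 holds 2 separate matches in the opposite orientation, Oas1a on the minus strand at chr5:120907476-120907775 holds 2 overlapping matches, and Bst2 on the minus strand at chr8:71537423-71537722 holds 2 overlapping matches.
Isg15: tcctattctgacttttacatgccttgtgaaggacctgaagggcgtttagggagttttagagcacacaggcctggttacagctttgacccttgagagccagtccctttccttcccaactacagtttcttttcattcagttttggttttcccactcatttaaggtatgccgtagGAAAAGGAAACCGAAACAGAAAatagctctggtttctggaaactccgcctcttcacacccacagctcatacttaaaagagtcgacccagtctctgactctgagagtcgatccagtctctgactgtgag
Ifit1: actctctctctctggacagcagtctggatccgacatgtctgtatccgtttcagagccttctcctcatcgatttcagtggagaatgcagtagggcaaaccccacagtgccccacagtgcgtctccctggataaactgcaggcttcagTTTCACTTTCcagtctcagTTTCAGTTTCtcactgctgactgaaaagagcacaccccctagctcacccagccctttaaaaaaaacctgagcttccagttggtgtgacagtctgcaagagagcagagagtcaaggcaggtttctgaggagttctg
Oas1a: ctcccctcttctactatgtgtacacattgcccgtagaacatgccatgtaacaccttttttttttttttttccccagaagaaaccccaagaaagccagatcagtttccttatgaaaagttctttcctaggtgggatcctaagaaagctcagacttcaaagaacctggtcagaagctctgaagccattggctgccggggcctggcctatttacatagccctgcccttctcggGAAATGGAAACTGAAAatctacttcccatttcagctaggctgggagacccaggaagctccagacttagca
Bst2: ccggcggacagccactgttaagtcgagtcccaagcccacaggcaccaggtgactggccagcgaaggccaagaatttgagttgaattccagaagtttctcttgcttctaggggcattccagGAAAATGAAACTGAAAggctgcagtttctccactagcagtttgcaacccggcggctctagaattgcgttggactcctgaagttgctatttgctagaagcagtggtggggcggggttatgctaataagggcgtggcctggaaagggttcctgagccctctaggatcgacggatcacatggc

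Counted from the start base as 0, the Isg15 matches ran from -78 to -57, those of Ifit1 from -104 to -76, those of Oas1a from -20 to -5 and those of Bst2 from -130 to -115. Ifit3 and Ifit3b, neighbours on chromosome 19, held the same pair of sites as each other, TTTCACTTTC and TTTCAGTTTC, and Ifit1 held this pair too. Ddx58, Eif2ak2, Ifih1, Oas3, Rsad2, Stat2 and Trim30a made up the rest of the 13. The letters were not found in the windows of Irf7, Irf9, Ifit2, Oasl1, Oasl2, Isg20, Cmpk2, Herc6, Ifi35, Ifi44, Lgals3bp, Xaf1 and Dtx3l. The median log2 fold change of KO over WT at day 7 was 1.95 for the 13 genes with the letters and 1.67 for the 13 without (1.09 and 1.03 without KO library 4), which is a description of these windows only.

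The libraries held between 23326248 and 35803197 reads counted in genes, with at least 1 read in 12534 to 13241 genes each. Ago1 had 0 reads in all 4 KO libraries at day 7 and 0, 0 and 2 at day 14, against 128 to 141 and 67 to 100 reads in WT. Ago3 (39 to 69 reads in KO and 74 to 159 in WT at day 7) and Ago4 (62 to 103 in KO and 11 to 26 in WT at day 7) were not at 0 in KO. The tables hold 1 count per gene, so they do not show which exons these reads came from. T cell markers were present in every library: Cd3e stood at 185 to 396 CPM, counts scaled to a common library size, and Gata3, the Th2 master regulator, at 411 to 603 CPM over all libraries. KO library 4 at day 7 stands apart for this group of genes, and fold changes at day 7 are given with and without it.

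At day 7 nearly all genes of the group had higher estimates in KO cells than in WT cells, but no single gene passed the test. The log2 fold change of KO over WT was above 0 for 34 of the 35 genes, with a median of 1.95 and a range of -1.04 to 5.05, while the median over all 11591 genes tested was -0.01. All 35 genes passed the filter on low counts. In bulk RNA, fewer cells of a type and less RNA per cell cannot be told apart. With edgeR's quasi-likelihood test and Benjamini-Hochberg adjustment over all genes, 0 of 35 were called at an adjusted p under 0.05, where 0.0949% of all genes tested were. At an unadjusted p under 0.05, 25 of 35 were higher and 1 was lower in KO, against 11.4% and 12.1% of all genes, and the smallest adjusted p in the group, shared by 20 genes, was 0.154. Other tools drew the line elsewhere: DESeq2 called 20 of the 35 higher (2.39% of all genes) and limma-voom with sample weights called 26 higher and 1 lower (20.0% and 23.8% of all genes), the 20 of DESeq2 being 100% of its own calls and 76.9% of the 26.

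Levels of the group differed between the libraries of a genotype at day 7. The summed level of the 35 genes was 5507, 2522, 4245 and 14888 CPM in KO libraries 1 to 4 at day 7, against 1075, 1652, 3183 and 2437 CPM in WT libraries 1 to 4. KO library 4 held 1.44% of its reads in these 35 genes, WT library 1 held 0.108%, and KO library 2 lay below WT library 3. The groups overlapped. KO library 4 was above every WT library for 34 of the 35 genes, KO library 1 for 31, KO library 3 for 22 and KO library 2 for 4. The share of all genes for single libraries is not given here, so these counts only describe the group. All 4 KO libraries were above all 4 WT libraries for only 2 genes, Herc6 and Rsad2, while 9.27% of all genes tested were separated in that direction, and 0 genes were separated the other way (12.9% of all genes). From low to high, the summed level ordered the KO libraries as 2, 3, 1 and 4, and 23 of the 35 genes had this order. For the WT libraries the order of the sum was 1, 2, 4 and 3, which 23 of 35 had. Both orders come from the sum of these same genes, so some agreement is built in, and no share over all genes is given.

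**Figure D1:**
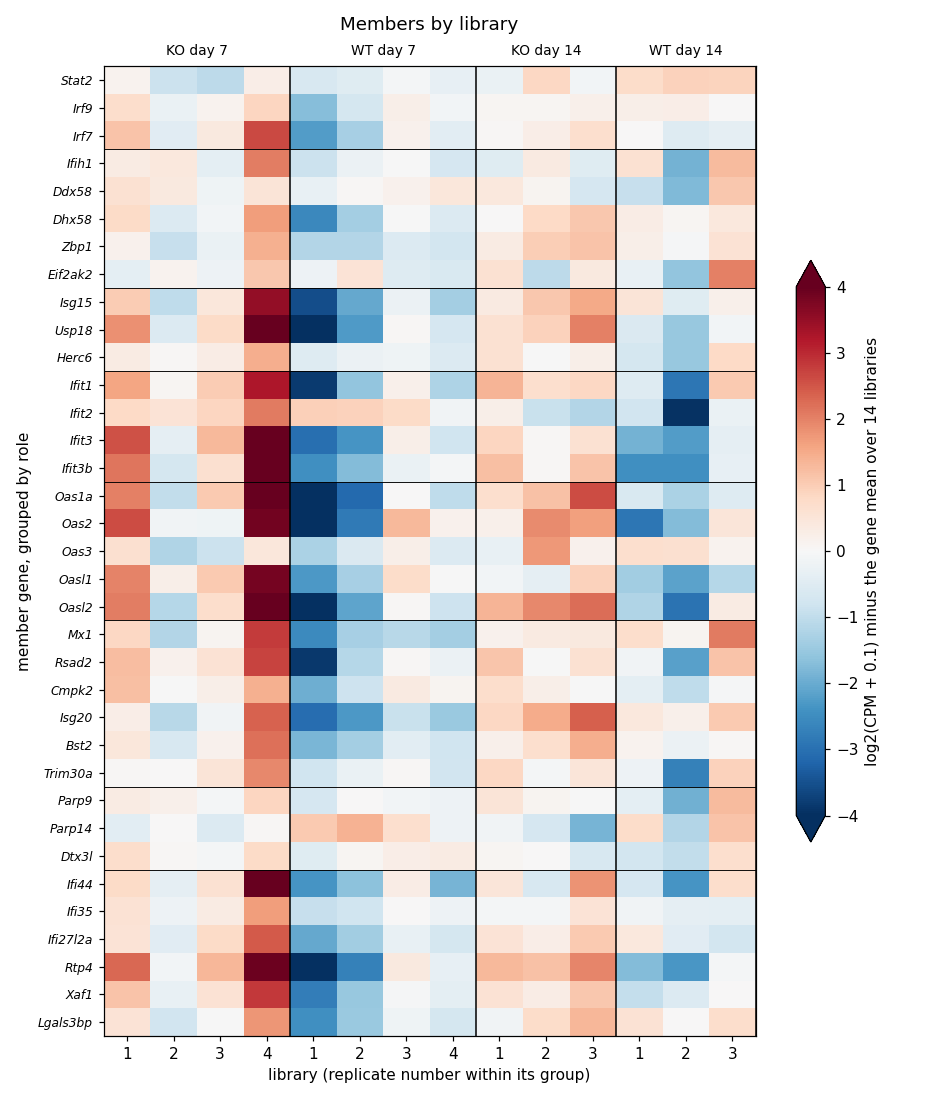
Heat map of the 35 genes (down, grouped by role) in the 14 libraries (across, KO left of WT at each day). Colour is log2(CPM + 0.1) minus the gene's mean over all 14 libraries, red for high and blue for low, and colours past 4 in either direction are clipped. KO library 4 at day 7 is the highest of all 14 libraries for 28 of the 35 genes and WT library 1 at day 7 the lowest for 25. The shares over all genes are not given here.

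KO library 4 was a median of 3.74 times above the median of the other 3 KO libraries at day 7, with a range over genes of 1.11 to 29.9 times. Without it the median log2 fold change of the group was 1.09, with 33 of 35 above 0, 18 of 35 higher and 0 lower at an unadjusted p under 0.05 (4.43% and 5.7% of all genes), and 0 called (0.0864% of all genes). The fold change was smaller without it for all 35 genes, by a median of 0.77 on the log2 scale. Library 4 also had the steepest trend over coding length among the 14 libraries, a slope of -0.37 log2 CPM per doubling of length. At day 7 the slopes were -0.17 to 0.02 in the other KO libraries and 0.07 to 0.27 in WT libraries. KO library 3 at day 14 came close, at -0.32, and the rest of the day 14 libraries had slopes of -0.14 to 0.16. Removing from every library its dependence on GC content and length of the coding sequence left the median of the group at 1.81. Sequencing runs were inferred from lane and identifier numbers attached to the deposited data, not from a stated run. All KO libraries at day 7 and WT libraries 2 to 4 fell in 1 such run. Within that run the median was 1.76, with 34 of 35 above 0 and 0 called, where 0.0692% of all genes were.

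The transcription factors of the group had unlike fold changes. Irf7, the interferon-inducible amplifier, had 436, 145, 261 and 1249 CPM in KO libraries 1 to 4 at day 7, against 42.5, 78.5, 224 and 148 CPM in WT libraries 1 to 4. KO libraries 1, 3 and 4 were above all WT libraries, and KO library 2 lay within the WT range. The log2 fold change of Irf7 was 2.09 ± 0.59 (SE; edgeR adjusted p = 0.154), and 1.21 ± 0.46 (edgeR adjusted p = 0.485) without KO library 4. Irf9, the DNA-binding part of ISGF3, had 368, 190.2, 253 and 411 CPM in KO at day 7, against 70.3, 140.0, 269 and 211 CPM in WT. WT library 1 was the lowest and the groups overlapped (log2 fold change 0.82 ± 0.33, edgeR adjusted p = 0.170, and 0.67 without KO library 4). Stat2, which gives ISGF3 its activation domain, had 140.5, 69.9, 61.9 and 152 CPM in KO at day 7, against 81.2, 91.5, 122 and 102 CPM in WT. The highest and the lowest libraries for Stat2 were both KO, and the fold change was 0.10 ± 0.30 on the log2 scale (edgeR adjusted p = 0.866), turning to -0.11 without KO library 4.

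The ISG15 system showed some of the widest gaps. ISG15 is a small protein that is attached to other proteins, HERC6 is its main ligase in mice, and USP18 removes it and also damps the interferon receptor. Isg15 had 56.2, 13.7, 37.7 and 318 CPM in KO libraries 1 to 4 at day 7, against 2.31, 6.61, 23.5 and 10.9 CPM in WT libraries 1 to 4. KO library 4 was far above all others, and KO library 2 was below WT library 3. The log2 fold change of Isg15 was 3.30 ± 0.86 (edgeR adjusted p = 0.154) and 1.76 ± 0.62 (edgeR adjusted p = 0.485) without KO library 4. Usp18 had 112, 21.5, 52.9 and 510.5 CPM in KO at day 7, against 1.25, 6.38, 32.5 and 19.4 CPM in WT. The order of the libraries was that of Isg15, and the log2 fold change was 3.55 ± 0.99 (edgeR adjusted p = 0.154), or 2.09 ± 0.81 (edgeR adjusted p = 0.485) without KO library 4. Herc6, with no overlap, stood at 24.8 to 66.7 CPM in KO and 16.7 to 21.3 CPM in WT, a log2 fold change of 1.01 ± 0.43, or 0.61 ± 0.42 without KO library 4.

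The cytosolic sensors lay at lower fold changes. Ifih1 encodes MDA5 and Ddx58 encodes RIG-I, the sensors of viral double-stranded RNA, and Dhx58 encodes LGP2, which modulates both. Ifih1 had 3.61, 3.89, 2.16 and 12.2 CPM in KO libraries 1 to 4 at day 7, against 1.53, 2.44, 2.84 and 1.76 CPM in WT libraries 1 to 4. Ddx58 had 107, 91.0, 62.1 and 101 CPM in KO, against 57.1, 72.6, 78.8 and 95.7 CPM in WT. Dhx58 had 149, 60.0, 81.0 and 279 CPM in KO, against 14.7, 34.1, 87.5 and 60.3 CPM in WT. The groups overlapped for all 3. Their log2 fold changes were 1.34 ± 0.62 for Ifih1, 0.25 ± 0.46 for Ddx58 and 1.53 ± 0.52 for Dhx58 (edgeR adjusted p = 0.208, 0.776 and 0.154). Leaving out KO library 4 gave 0.60 for Ifih1, 0.21 for Ddx58 and 1.00 for Dhx58. Zbp1, a sensor of Z-form nucleic acids, had a log2 fold change of 1.25 ± 0.40, or 0.63 without KO library 4. Eif2ak2, which encodes the RNA-activated kinase PKR, stood at 1.72, 2.53, 1.97 and 4.91 CPM in KO, against 1.98, 3.35, 1.56 and 1.46 CPM in WT, with no clear order between the groups (0.41 ± 0.66 on the log2 scale, and 0.0040 ± 0.72 without KO library 4).

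The IFIT genes, a cluster on chromosome 19 whose proteins bind viral RNA, covered a wide range of fold changes. Ifit3 had 12.5, 1.59, 5.23 and 98.1 CPM in KO libraries 1 to 4 at day 7, against 0.167, 0.325, 2.46 and 1.17 CPM in WT libraries 1 to 4. KO libraries 1, 3 and 4 were above all WT libraries. The log2 fold change of Ifit3 was 4.83 ± 1.17 (edgeR adjusted p = 0.154), and 2.67 ± 0.85 (edgeR adjusted p = 0.485) without KO library 4. Ifit3b, its near-identical neighbour, had 2.32, 0.236, 0.752 and 20.9 CPM in KO, against 0, 0.0651, 0.351 and 0.418 CPM in WT (4.89 ± 1.38 on the log2 scale, edgeR adjusted p = 0.154, and 2.45 ± 1.11 without KO library 4). WT libraries held 0 to 11 reads of Ifit3b, and the counting may have split or dropped reads that fit both copies, so the values of the pair are uncertain. Ifit1 was at 41.7 to 379 CPM in KO and 2.73 to 45.5 CPM in WT, with a log2 fold change of 2.99 ± 0.89, or 2.07 without KO library 4. Ifit2, by contrast, was at 7.40 to 21.8 CPM in KO and 4.60 to 9.88 CPM in WT (0.53 ± 0.60 on the log2 scale, and 0.065 ± 0.63 without KO library 4).

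Enzymes of the OAS family make a second messenger which turns on RNase L, while OASL1 is known in mice to hold back translation of Irf7. All 5 genes of the family in the group had log2 fold changes above 0 at day 7. Their median was 2.73 and their range 0.41 (Oas3) to 4.38 (Oas1a). The median was 1.61 without KO library 4, with a range of 0.23 (Oas3) to 2.48 (Oas1a). Oasl2 had 29.1, 3.07, 11.4 and 148 CPM in KO libraries 1 to 4, against 0.167, 1.53, 7.12 and 3.85 CPM in WT libraries 1 to 4. KO library 2 lay within the WT range, as it did for Oas1a. Oas1a belongs to a family of close paralogs, so its counts are uncertain in the same way as those of Ifit3. Oas2 and Oasl1 had fold changes of 2.64 ± 1.24 and 2.73 ± 0.77 on the log2 scale, and 1.57 and 1.61 without KO library 4. Oas3, next to Oas2 on chromosome 5, was at 23.3 to 84.7 CPM in KO and 22.5 to 63.9 CPM in WT.

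Among the other antiviral effectors, 5 of 6 were higher in KO at an unadjusted p under 0.05 (11.4% of all genes), with a median log2 fold change of 2.12. Without KO library 4 it was 3 of 6 (4.43% of all genes), with a median of 1.31. Isg20, a 3′ to 5′ exonuclease, had 97.1, 37.6, 72.4 and 410.0 CPM in KO libraries 1 to 4 at day 7, against 9.61, 16.3, 43.6 and 28.5 CPM in WT libraries 1 to 4 (2.65 ± 0.68 on the log2 scale, edgeR adjusted p = 0.154). KO library 2 was the only KO library below the highest WT library. Mx1, a dynamin-like GTPase whose gene carries a disabling deletion in C57BL/6 and most other laboratory strains, had 1.51, 0.304, 0.877 and 6.24 CPM in KO, against 0.0557, 0.260, 0.319 and 0.251 CPM in WT (3.32 ± 0.84 on the log2 scale, edgeR adjusted p = 0.154). Mx1 was low everywhere, with 2 to 10 reads in the WT libraries. Bst2, which encodes tetherin, had a log2 fold change of 1.95 ± 0.52. Rsad2, which encodes viperin, and its neighbour on chromosome 12, Cmpk2, had fold changes of 2.29 ± 0.81 and 1.16 ± 0.45 on the log2 scale, and Trim30a had one of 1.26 ± 0.59. Without KO library 4 the log2 fold changes were 1.52 for Isg20, 2.02 for Mx1, 1.09 for Bst2, 1.52 for Rsad2, 0.92 for Cmpk2 and 0.62 for Trim30a.

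The 3 genes with the highest level per length over all libraries were Ifi27l2a at a mean of 1739 RPKM, Lgals3bp at 171 and Ifi35 at 141, on the deposited scale that divides reads by gene length and library size. The median of the 35 genes was 14.8 RPKM, and 6 were under 1 RPKM. Ifi27l2a had 1273, 635, 1477 and 4705 CPM in KO libraries 1 to 4 at day 7, against 209.7, 328, 701 and 535 CPM in WT libraries 1 to 4. Lgals3bp, a secreted glycoprotein gene, had 830.1, 334, 562 and 1922 CPM in KO, against 102, 199.8, 498 and 348 CPM in WT. Ifi35 had 395, 229, 333 and 845 CPM in KO, against 139, 153, 266 and 228 CPM in WT. For each of the 3, KO library 2 was below WT library 3 and KO library 4 stood above all others. The log2 fold changes were 2.19 ± 0.54 for Ifi27l2a, 1.67 ± 0.54 for Lgals3bp and 1.20 ± 0.34 for Ifi35, each with an edgeR adjusted p of 0.154. They were 1.37, 1.03 and 0.72 without KO library 4, each with an edgeR adjusted p of 0.485.

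Rtp4, a receptor-transporter gene, had 207, 38.6, 106 and 638 CPM in KO libraries 1 to 4 at day 7, against 1.11, 6.35, 55.4 and 33.8 CPM in WT libraries 1 to 4 (3.36 ± 1.02 on the log2 scale, edgeR adjusted p = 0.154, and 2.31 ± 0.95 without KO library 4). Ifi44 had the highest fold change of the group, 5.05 ± 1.53 on the log2 scale (edgeR adjusted p = 0.154), and it rested on KO library 4. Its levels were 0.774, 0.304, 0.689 and 20.6 CPM in KO, against 0, 0.0651, 0.543 and 0.0418 CPM in WT. Without KO library 4 the fold change of Ifi44 was 1.84 ± 1.16 (edgeR adjusted p = 0.541). Xaf1 had a log2 fold change of 2.39 ± 0.64, or 1.47 without KO library 4.

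Parp14 was the only gene of the group with a fold change below 0 at day 7. It encodes an ADP-ribosyltransferase that also acts with STAT6, the transcription factor of interleukin-4 signalling. Parp14 had 9.94, 13.4, 9.05 and 13.9 CPM in KO libraries 1 to 4, against 27.6, 34.9, 21.1 and 11.6 CPM in WT libraries 1 to 4. WT library 4 lay within the KO range and the other 3 WT libraries were above it (log2 fold change -1.04 ± 0.47, edgeR adjusted p = 0.206, and -1.13 without KO library 4). Limma-voom called Parp14 lower (-1.33, limma adjusted p = 0.00463), and with the GC and length trends removed its log2 fold change was -0.25 ± 0.29 (edgeR adjusted p = 0.710). Its neighbours on chromosome 16, Parp9 and Dtx3l, whose products form a complex, had log2 fold changes of 0.59 ± 0.46 and 0.33 ± 0.34, or 0.40 and 0.20 without KO library 4. Parp9 and Dtx3l overlap on opposite strands and the sources used here do not tell if counting used the strand, so reads of one may be counted for the other.

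**Figure D2:**
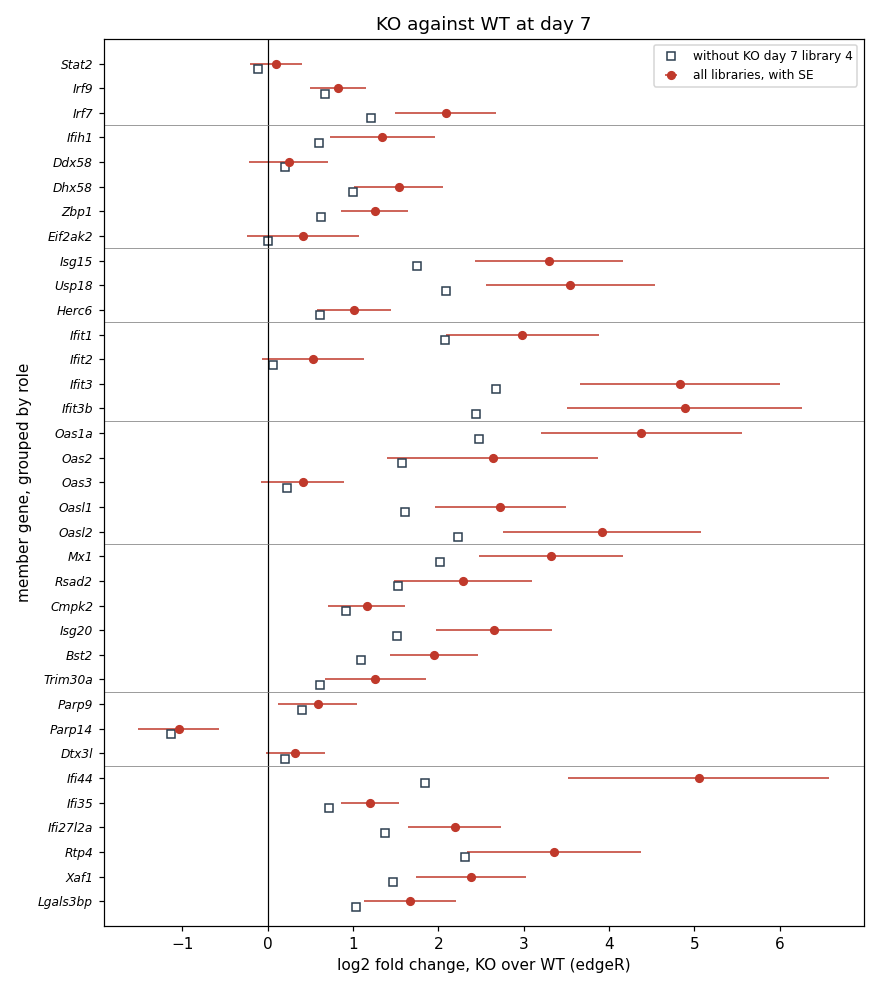
Log2 fold change of KO over WT at day 7 (x axis) for each of the 35 genes (y axis, grouped by role). Red points with bars are the edgeR estimates with SE from all libraries and open squares leave out KO library 4. Both sets lie to the right of 0 for most genes, with medians of 1.95 and 1.09, and Parp14 lies to the left in both.

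At day 14 the median gap between the genotypes was smaller than at day 7 with all libraries. Single libraries weighed on both days: the median was 1.09 at day 7 without KO library 4, and 1.17 at day 14 without WT library 3. The log2 fold change of KO over WT was above 0 for 28 of 35 genes, with a median of 0.58 and a range of -1.26 to 2.89, beside a median of 0.01 over all genes. With edgeR, 0 of 35 were called, where 1.42% of all genes were, and 1 was higher and 1 lower at an unadjusted p under 0.05 (11.4% and 10.3% of all genes). DESeq2 and limma-voom also called 0 of 35, where they called 8.57% and 16.9% of all genes. The summed level of the group was 4143, 4782 and 6600 CPM in KO libraries 1 to 3. It was 3934, 2802 and 3950 CPM in WT libraries 1 to 3, with no overlap. Abundant genes weigh most in this sum, and the 6 other inducible genes held a mean of 2847 of 5175 CPM in KO. The median over the 35 genes of the log2 deviation from each gene's mean did overlap. It was 0.409, 0.268 and 0.674 in KO libraries 1 to 3, against -0.308, -1.27 and 0.414 in WT libraries 1 to 3. For 12 of 35 genes all KO libraries were above all WT libraries (9.71% of all genes tested), and for 0 all were below (5.25%). The 12 were Irf7, Usp18, Ifit3, Ifit3b, Oas1a, Oasl1, Oasl2, Cmpk2, Bst2, Ifi35, Rtp4 and Xaf1.

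Irf7 had 205, 240.0 and 318 CPM in KO libraries 1 to 3 at day 14, against 202, 140.2 and 154 CPM in WT libraries 1 to 3. The groups did not overlap but nearly touched, and the log2 fold change was 0.62 ± 0.66 (edgeR adjusted p = 0.608). Usp18 had 47.5, 59.4 and 127 CPM in KO, against 21.1, 10.9 and 29.0 CPM in WT (1.94 ± 1.07, edgeR adjusted p = 0.304). Isg15 had 36.0, 58.8 and 79.6 CPM in KO, against 39.6, 20.0 and 32.2 CPM in WT (0.93 ± 0.92, edgeR adjusted p = 0.581), with 1 KO library inside the WT range.

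The highest fold changes at day 14 were those of Ifit3b, Oasl2 and Rtp4. Ifit3b had 1.15, 0.461 and 1.12 CPM in KO libraries 1 to 3, against 0, 0 and 0.340 CPM in WT libraries 1 to 3 (2.89 ± 1.61 on the log2 scale, edgeR adjusted p = 0.308). Oasl2 had 17.9, 26.6 and 32.8 CPM in KO, against 2.97, 0.802 and 8.75 CPM in WT (2.62 ± 1.26, edgeR adjusted p = 0.243). Rtp4 had 104, 95.3 and 161 CPM in KO, against 12.6, 8.32 and 40.0 CPM in WT (2.56 ± 1.14, edgeR adjusted p = 0.214). The groups did not overlap at day 14 for any of the 3. With all libraries each also had a fold change above 3 on the log2 scale at day 7, and without KO library 4 none did.

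By role, the median fold change at day 14 was highest for the OAS genes (2.19) and the IFIT genes (1.46), and lowest for the transcription factors (-0.05), the PARP and DTX3L genes (-0.01) and the sensors (0.05), on the log2 scale. The median of the last pair of roles changed with single WT libraries. Without WT library 3 the median was 0.75 for the sensors and 0.69 for the PARP and DTX3L genes, and without WT library 2 it was -0.39 and -0.45. The lowest fold changes at day 14 were those of Parp14, Mx1 and Eif2ak2. Parp14 had 12.2, 8.24 and 3.56 CPM in KO libraries 1 to 3, against 22.2, 5.81 and 29.5 CPM in WT libraries 1 to 3 (-1.26 ± 0.55 on the log2 scale, edgeR adjusted p = 0.206). Mx1 had 0.916, 1.05 and 1.09 CPM in KO, against 1.38, 0.868 and 3.74 CPM in WT (-0.97 ± 0.85, edgeR adjusted p = 0.524). Eif2ak2 had 3.55, 1.05 and 3.05 CPM in KO, against 1.82, 0.701 and 9.58 CPM in WT (-0.66 ± 0.75, edgeR adjusted p = 0.634). WT library 3 was the highest of all 6 libraries for these 3 genes, and WT library 2 was the lowest for Mx1 and Eif2ak2.

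The remaining transcription factors and the sensors overlapped between the genotypes at day 14. Stat2 had 106, 225 and 119 CPM in KO libraries 1 to 3, against 209.5, 241 and 237 CPM in WT libraries 1 to 3 (-0.61 ± 0.35, edgeR adjusted p = 0.323), with KO library 2 inside the WT range. Irf9 had 239, 243 and 264 CPM in KO, against 267, 272 and 231 CPM in WT. Ddx58 had 92.8, 75.8 and 44.0 CPM in KO, against 37.0, 20.5 and 148 CPM in WT, where the WT libraries spanned more than the KO ones. Dhx58 had 88.1, 153 and 187 CPM in KO, against 107, 92.6 and 117 CPM in WT. Ifih1 had 2.04, 3.72 and 2.02 CPM in KO, against 4.42, 0.701 and 6.99 CPM in WT.

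Single WT libraries set part of the day 14 result. WT library 2 was below every KO library for 29 of the 35 genes, and WT library 3 was above every KO library for 11. The shares of all genes for these single libraries are not given here. Without WT library 3 the median log2 fold change was 1.17 and 3 genes were called higher, Ddx58 (1.30), Herc6 (1.37) and Parp9 (1.17), in a fit that called 22.5% of all genes. Without WT library 2 the median was 0.44 and 0 were called, where 0.45% of all genes were. That last fit is also the one within a single sequencing run, since WT library 2 was in the other run from the remaining day 14 libraries.

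**Figure D3:**
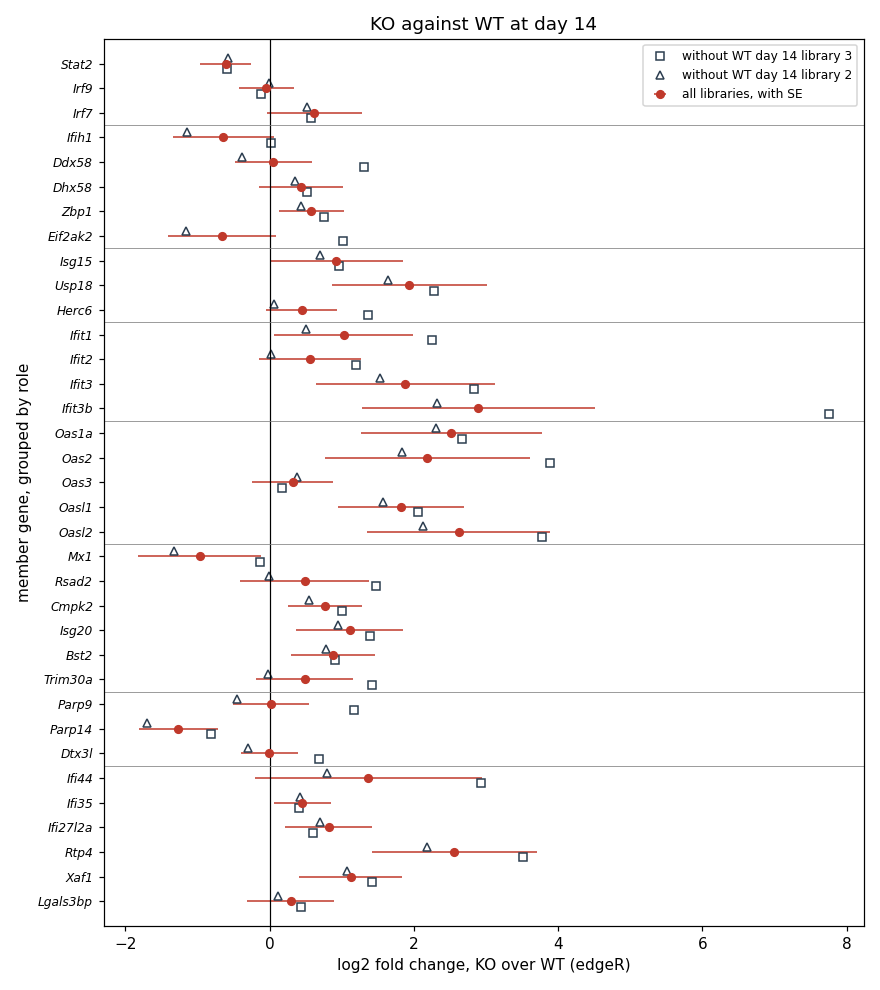
Log2 fold change of KO over WT at day 14 (x axis) for each of the 35 genes (y axis, grouped by role). Red points with bars are the edgeR estimates with SE from all libraries, open squares leave out WT library 3 and open triangles leave out WT library 2. The medians are 0.58, 1.17 and 0.44, and the squares of Ddx58 and Eif2ak2 lie far from their red points. The square of Ifit3b sets KO against WT libraries that are all at 0 reads, so its place depends on the model's prior count.

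Whether the genotype gap itself changed between the days was tested as an interaction. The log2 difference (day 14 gap minus day 7 gap) was below 0 for 34 of 35 genes, with a median of -1.07 beside 0.06 over all genes. With edgeR, 0 of 35 were called (0.0863% of all genes), and 0 were higher and 1 was lower at an unadjusted p under 0.05 (3.46% and 4.51% of all genes). That 1 gene was Mx1, at -4.29 ± 1.20 (edgeR adjusted p = 0.249), which DESeq2 called (-4.34, DESeq2 adjusted p = 0.0218, with 1.41% of all genes called). Without KO library 4 at day 7 the median of the interaction was -0.26, with 27 of 35 below 0.

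**Figure D4:**
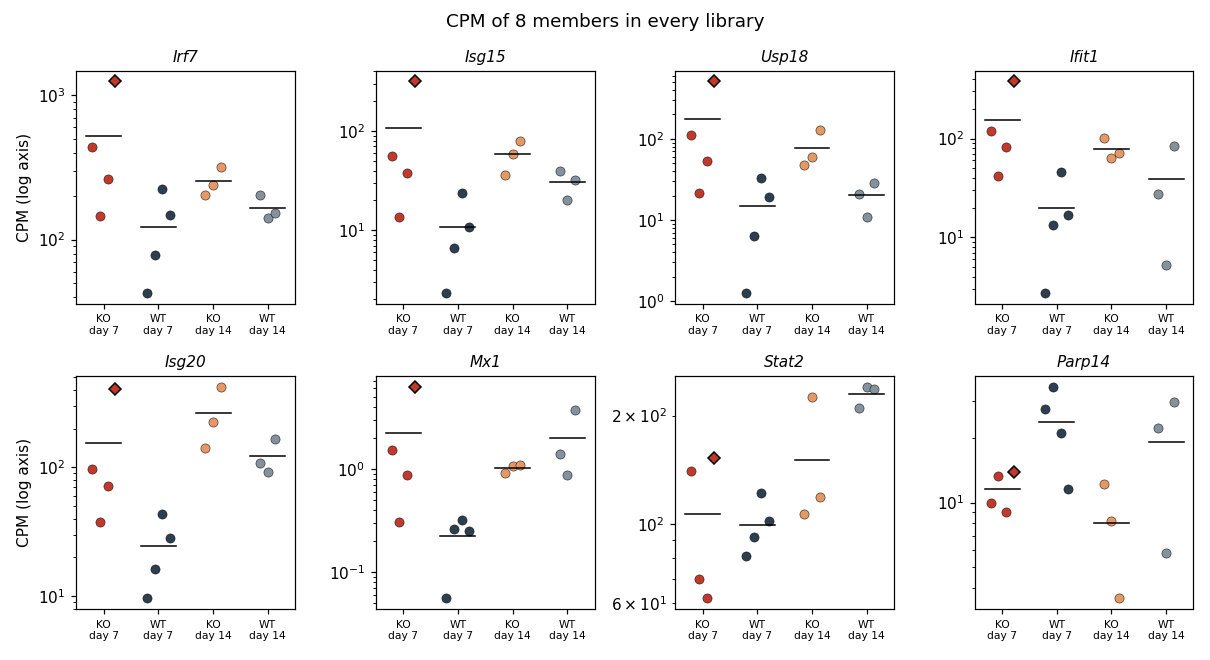
CPM (log axis) of 8 genes in every library, with KO left of WT at each day. Points are libraries, horizontal lines are group means and the diamond is KO library 4 at day 7. The diamond is the highest point of its group in all 8 panels, and for Irf7, Isg15, Usp18, Ifit1 and Mx1 it is the highest of all 14 libraries.

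Changes over time were counted within each genotype, and edgeR called 0 of 35 genes for the interaction of genotype and day. In WT cells 3 of 35 genes rose with time, Stat2, Mx1 and Isg20, and 0 fell, while 13.2% of all genes were called higher and 7.33% lower. All genes called in either direction made up 20.5%, so the share for the group, 3 of 35, was not above the background. At an unadjusted p under 0.05, 5 were higher and 1 was lower (18.8% and 13.7% of all genes). For 7 of the 35 every day 14 library was above every day 7 library (17.2% of all genes). Stat2 had 209.5, 241 and 237 CPM in WT at day 14, against 81.2, 91.5, 122 and 102 CPM in WT at day 7, with no overlap (1.21 ± 0.33 on the log2 scale, edgeR adjusted p = 0.0169). Isg20 had 109, 91.6 and 165 CPM at day 14, against 9.61, 16.3, 43.6 and 28.5 CPM at day 7, with no overlap (2.31 ± 0.70, edgeR adjusted p = 0.0301). Mx1 had 1.38, 0.868 and 3.74 CPM at day 14, against 0.0557, 0.260, 0.319 and 0.251 CPM at day 7, with no overlap (3.17 ± 0.87, edgeR adjusted p = 0.0183).

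The call of Stat2 was lost without WT library 1 at day 7 (edgeR adjusted p = 0.0531), as were those of Mx1 and Isg20 (edgeR adjusted p = 0.0559 and 0.0807). The call of Mx1 was also lost without WT library 3 at day 14 (edgeR adjusted p = 0.0671). That of Isg20 was also lost without WT library 2 or 4 at day 7 and without WT library 1 or 3 at day 14 (edgeR adjusted p between 0.0555 and 0.0854). WT library 1 is the only day 7 library of the second sequencing run, to which WT libraries 1 and 3 at day 14 also belong. With sequencing run as a term, Stat2 was called (1.32, edgeR adjusted p = 0.0251), and Mx1 (edgeR adjusted p = 0.0786) and Isg20 (edgeR adjusted p = 0.0556) were not.

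All KO libraries at day 7 were in 1 sequencing run and all at day 14 in the other, so time and run cannot be told apart within KO. In KO cells 0 of 35 genes were called over time, beside 15.5% of all genes. The median log2 fold change of day 14 over day 7 was -0.61, with 29 of 35 below 0. At an unadjusted p under 0.05, 0 were higher and 3 were lower (16.8% and 10.3% of all genes). The lowest was Ifit3, which had 3.84, 2.14 and 3.20 CPM in KO at day 14, against 12.5, 1.59, 5.23 and 98.1 CPM in KO at day 7 (-3.26 ± 1.21, edgeR adjusted p = 0.0891). Without KO library 4 at day 7 the median was 0.05, and Isg20 (1.90) and Zbp1 (1.10) were called higher, with 10.2% of all genes. Isg20 had 142, 224 and 424 CPM in KO at day 14, against 97.1, 37.6, 72.4 and 410.0 CPM in KO at day 7. Ifit2 was the only gene with every day 14 library below every day 7 library in both genotypes, at 2.20 to 5.94 against 7.40 to 21.8 CPM in KO and 0.234 to 4.17 against 4.60 to 9.88 CPM in WT. Of all genes, 10.2% were separated in that direction in KO and 13.8% in WT, and 13.6% in the opposite direction in KO, where 0 of the 35 were. Ifit2 was not called by the edgeR test in either genotype, with log2 fold changes of -1.71 in KO and -1.74 in WT (edgeR adjusted p = 0.117 and 0.0919). DESeq2 called it lower in both (DESeq2 adjusted p = 0.0408 in KO and 0.0335 in WT), where it called 7.39% and 10.1% of all genes lower. With the GC and length trends removed it was also called lower in both (edgeR adjusted p = 0.0287 and 0.0326), beside 10.2% and 15.9% of all genes. In WT, Ifit2 was further called lower by limma-voom (-2.55, limma adjusted p = 0.00813), with the run term (-2.99, edgeR adjusted p = 0.0245) and without WT library 3 at day 14 (-2.38, edgeR adjusted p = 0.0380).

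**Figure D5:**
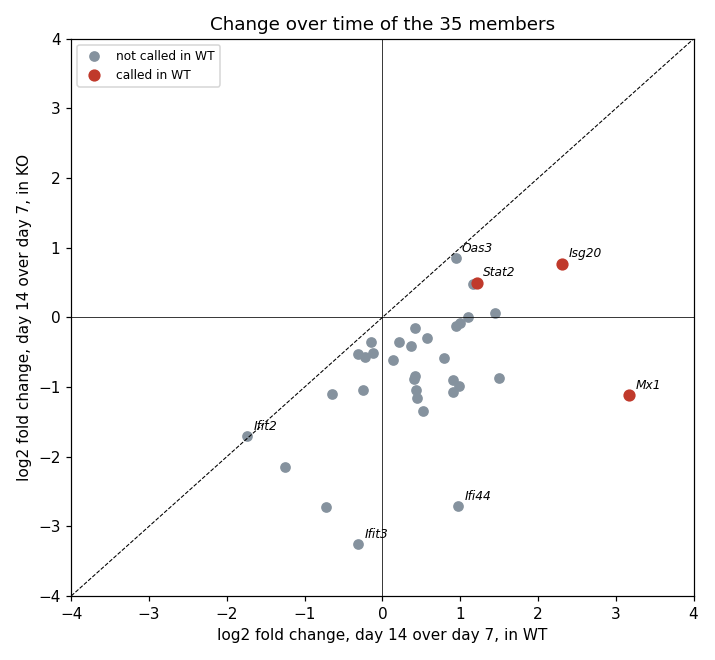
Log2 fold change of day 14 over day 7 in KO (y axis) and in WT (x axis), 1 point per gene, with a dashed line where both are equal. Red points are the 3 genes called in WT (Stat2, Mx1 and Isg20). Of the 35 genes, 29 lie below 0 in KO and 25 lie above 0 in WT. Single libraries weigh on both: the KO median is 0.05 without KO library 4 at day 7. The WT median is -0.08 without WT library 3 at day 14, and edgeR called 0 genes for the interaction.

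The steps above the group in the pathway were read from lists of other genes. Interferon genes themselves were near the floor of detection: 16 of 21 had 0 reads in all 14 libraries, and the 21 together had 20 reads in all. Ifnb1, the interferon beta gene, had 0 to 1 read in KO and 0 in WT at day 7, and at most 4 reads in KO and 2 in WT at day 14. Ifng, the type II interferon gene, had at most 1 read in any library. Interferon protein was not measured in these files.

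Of the 9 receptor and signalling genes, 8 were tested and 0 were called between the genotypes at either day with all libraries. Without WT library 3 at day 14, 9 were tested and 1 was called higher and 1 lower. Ifnar1 averaged 135 ± 45.6 CPM in KO and 175 ± 34.6 CPM in WT at day 7 (SD, n = 4 each), a log2 fold change of -0.38 ± 0.30, and Ifnar2 had one of 0.42 ± 0.18. The kinase genes Jak1 and Tyk2 had log2 fold changes of -0.78 ± 0.37 and -1.13 ± 0.37, and the adaptor gene Mavs one of -0.35 ± 0.21. Irf1 and Irf3, an inducible and a constitutive relative of Irf7, had 0.33 ± 0.19 and 0.04 ± 0.16.

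Several genes of these lists differed between the days, which in KO were also different sequencing runs. Socs1 and Socs3, which inhibit cytokine receptor signalling, rose in both genotypes: Socs1 averaged 939 ± 488 CPM at day 14 (SD, n = 3) and 115.5 ± 46.7 CPM at day 7 (SD, n = 4) in KO (log2 fold change 3.02 ± 0.38, edgeR adjusted p = 1.79e-04), and 806 ± 250 CPM and 76.4 ± 7.66 CPM in WT (3.40 ± 0.39, edgeR adjusted p = 4.57e-05). Irf8 rose in both genotypes (2.83 ± 0.37 in KO and 2.37 ± 0.36 in WT, edgeR adjusted p = 1.88e-04 and 4.23e-04). Irf4, needed for Th2 differentiation, rose in WT (2.61 ± 0.50, edgeR adjusted p = 0.00202), and was 1.11 ± 0.49 in KO without passing the test (interaction edgeR adjusted p = 0.623). Ifnar1 fell by 1.18 and Jak1 fell by 1.54 on the log2 scale in WT (edgeR adjusted p = 0.0231 and 0.0168). In KO their log2 fold changes were -0.48 and -1.17 without passing the test (edgeR adjusted p = 0.407 and 0.0708). Neither interaction was called (edgeR adjusted p = 0.831 and 0.990). Samhd1, which depletes nucleotides, and Ikbke, a kinase upstream of IRF3, fell in both genotypes. The calls of Ifnar1 and Jak1 in WT were each lost without WT library 1 at day 14 and without 1 or 2 other WT libraries (edgeR adjusted p up to 0.0989 and 0.0576). That of Samhd1 was lost in KO without KO library 2 or 3 at day 14 and in WT without WT library 1 at day 14 (edgeR adjusted p up to 0.0541 and 0.0505).

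A further 53 interferon-stimulated genes outside the group were listed, of which 44 were tested. At day 7 their median log2 fold change of KO over WT was 0.68, with 38 of 44 above 0, 22 higher and 1 lower at an unadjusted p under 0.05 (11.4% and 12.1% of all genes), and 0 called by edgeR. The median was 0.46 without KO library 4, with 36 of 44 above 0, 14 higher and 1 lower at that p (4.43% and 5.7% of all genes). At day 14 the median was 0.45, with 31 of 44 above 0, 8 higher and 1 lower at an unadjusted p under 0.05 (11.4% and 10.3% of all genes), and 0 called. That median was 0.13 without WT library 2 and 0.78 without WT library 3, where 8 of 45 genes tested were called higher and 2 lower (22.5% of all genes in either direction). Over time 9 rose and 5 fell in WT, beside 13.2% and 7.33% of all genes. In KO 2 rose and 5 fell, beside 10.5% and 4.92% of all genes, and without KO library 4 at day 7 it was 4 and 2, beside 10.2% and 4.82%. The membrane antiviral genes Ifitm2 and Ifitm3 rose in WT (2.84 ± 0.59 and 3.00 ± 1.00 on the log2 scale, edgeR adjusted p = 0.00347 and 0.0467). In KO they were 1.04 and 0.28 without passing the test (edgeR adjusted p = 0.263 and 0.892). Without KO library 4 at day 7 both passed it in KO. Neither interaction was called (edgeR adjusted p = 0.619 and 0.668). Slfn1 fell in both genotypes. The call of Ifitm3 was lost in each of the 7 fits that left out a WT library (edgeR adjusted p up to 0.119), and that of Slfn1 in KO without KO library 2 or 3 at day 14 (edgeR adjusted p up to 0.0605).

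Markers of other cell types were read in the same libraries. Of 12 myeloid and dendritic cell genes, 4 (among them Itgax, Itgam and Xcr1) had 0 reads in all libraries and 7 were tested. Their summed level was 10.2 to 18.4 CPM in KO and 3.04 to 5.85 CPM in WT at day 7, with no overlap, and the highest was KO library 4. At day 14 it was 18.3 to 29.5 CPM in KO and 10.6 to 32.2 CPM in WT, with overlap. Mgl2, a large part of the sum in KO at day 7, was called in this list. It had 5.95 to 7.74 CPM in KO and 0.947 to 1.84 CPM in WT at day 7 (2.28 ± 0.37, edgeR adjusted p = 0.0249). That call was lost in 7 of the 8 fits that left out a library, KO library 4 among them (edgeR adjusted p up to 0.146). Mgl2 was also called higher in KO at day 14 (2.45, edgeR adjusted p = 0.0186). The day 14 call was lost in 3 of the 6 fits that left out a library (edgeR adjusted p up to 0.0931). Th2 genes summed to 1821 to 2906 CPM in KO and 2863 to 3373 CPM in WT at day 7, lowest in KO library 4. At day 14 they summed to 2114 to 4836 CPM in KO and 6150 to 8156 CPM in WT, with no overlap. Th1 genes summed to 3.01 to 8.52 CPM in KO and 4.21 to 11.4 CPM in WT at day 7. Their sums at day 14 were 57.4 to 90.7 CPM in KO and 32.4 to 116 CPM in WT. Class II genes summed to 98.8 to 315 CPM in KO and 66.0 to 111 CPM in WT at day 7, again highest in KO library 4. Their sums at day 14 were 71.3 to 125 CPM in KO and 99.5 to 137 CPM in WT, with overlap. The 2 CD8 T cell genes summed to 10.5 to 21.0 CPM in KO and 6.67 to 10.2 CPM in WT at day 7, and the 8 CD4 T cell genes to 7578 to 11725 CPM in KO and 5985 to 7295 CPM in WT, both with no overlap and highest in KO library 4. At day 14 the CD8 T cell genes summed to 11.4 to 20.6 CPM in KO and 6.32 to 7.92 CPM in WT. The CD4 T cell genes then summed to 7368 to 9809 CPM in KO and 6773 to 7558 CPM in WT, with overlap. The 8 plasmacytoid dendritic cell genes, of which 2 had 0 reads in all libraries, summed to 26.4 to 31.2 CPM in KO and 28.9 to 32.2 CPM in WT at day 7, and to 44.1 to 63.6 CPM in KO and 41.9 to 48.5 CPM in WT at day 14. The defining gene Siglech had at most 2 reads in a library. Mast cell and basophil genes summed to 47.1 to 82.2 CPM in KO and 30.5 to 64.6 CPM in WT at day 7, and to 22.5 to 130 CPM in KO and 1.07 to 5.76 CPM in WT at day 14. B cell genes summed to at most 4.25 CPM in KO at day 7. NK cell genes summed to at most 2.60 CPM in KO and 6.48 CPM in WT at day 7. They summed to 10.8 to 40.4 CPM in KO and 22.4 to 42.0 CPM in WT at day 14. The part of these cells in the levels of the group was not tested.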

How the data were processed

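RNA of 14 libraries was sequenced from both ends. The read aligner GSNAP and the genome build GRCm38 are named, per the submitters' processing notes. For each library the authors deposited a whole-number read count and an RPKM value per gene, with the coding width in bases, per the file headers. The counting tool, its annotation and its strand setting are not stated by these sources. Of the 22598 Ensembl identifiers, 22457 had a symbol in GENCODE vM21, which also gave the coordinates. RPKM served only to compare levels between genes.

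All tests used edgeR 4.0.16 in R 4.3.3. The 11591 genes that passed filterByExpr entered a single robust quasi-likelihood fit of the 4 group means after TMM scaling, and the common biological coefficient of variation was 0.354. A gene was called when its p, adjusted by Benjamini-Hochberg over every gene tested, was under 0.05. The SE is the log2 fold change divided by the square root of the F statistic. CPM uses the TMM-scaled totals. No library pair within a group agreed within sampling noise by a chi-square test. The fitting code was tested on simulated data with known changes.

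The 35 genes, their roles, the other lists and the genes named were chosen with earlier results of these data known. Values in every library are given for the 3 genes with the highest mean RPKM, Irf7, Irf9, Stat2, Isg15, Usp18, the sensors Ifih1, Ddx58 and Dhx58, the 3 highest and the 3 lowest fold changes at each day, and each gene called in any of the 5 comparisons. Of other genes, Ifnb1, Ifng, Ifnar1, Ifnar2, Jak1, Tyk2, Irf1, Irf3, Mavs and called pathway genes may be named, and not all are reported here.

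Alternatives were other scaling factors, other count filters, DESeq2 1.42.0, voom with sample weights from limma 3.58.1 and a fit of the compared groups alone. Further ones were a replicate block, the inferred sequencing run as a term and each library left out. An offset for GC content and length of the coding sequence (splines with 5 df each) was chosen after seeing the data. Promoter sequences are from RefSeq (GRCm38.p6).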

Additional observations from a re-analysis of the deposited data

Results flagged for a closer look

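Within the groups of 4 libraries, a gap of 1 library to the rest took up most of the range of its group (Dixon's test at the 95% level) for 9 genes in KO at day 7 and for 1 gene in WT at day 7. In each of the 9 the high library was KO library 4: Isg15 at 318 CPM, Herc6 at 66.7, Ifit2 at 21.8, Ifit3 at 98.1, Ifit3b at 20.9, Oas1a at 250.5, Isg20 at 410.0, Trim30a at 124 and Ifi44 at 20.6 CPM. In WT at day 7 the high library for Ifi44 was library 3, at 0.543 CPM. Chance flags about 1 in 20 such groups, and genes that share a library are not independent of each other.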

How the results depend on the processing

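At day 7, DESeq2 called 20 of the 35 genes higher and limma-voom called 26 higher and 1 lower, and leaving out each library in turn gave 0 calls and medians of 1.09 to 2.24. At day 14, leaving out each library gave 0 to 3 genes called higher and medians of 0.44 to 1.17. For the interaction DESeq2 called 1 lower, and medians without single libraries were -1.63 to -0.26. Over time in KO, limma-voom called 2 higher, DESeq2 3 lower and the GC and length offset 1 lower. With the run term the median was -0.32. Leaving out each KO library gave 0 to 2 higher, 0 to 1 lower and medians of -0.88 to 0.047, the sign turning without KO library 4 at day 7. Over time in WT, DESeq2 called 5 higher and 1 lower, limma-voom 5 and 2, and the run term 1 and 1. The offset called 4 higher and 1 lower. Leaving out each WT library gave 0 to 4 higher, 0 to 3 lower and medians of -0.080 to 0.87, the sign turning without WT library 3 at day 14.

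Between the genotypes, 4 of the 35 genes at day 7 and 10 at day 14 had another sign under at least 1 alternative. Stat2 at day 7 was -0.39 with limma-voom, -0.07 without KO library 1 and -0.11 without KO library 4, in a range of -0.11 to 0.29 over single libraries left out. That range was -1.16 to 1.02 for Eif2ak2 at day 14. With limma-voom at day 7, Ddx58 was -0.0095, Eif2ak2 -0.042 and Oas3 -0.11. At day 14, Eif2ak2 was 0.47 with limma-voom and 1.02 without WT library 3, and Irf9 was 0.21 with the run term and 0.089 with the offset. Ifih1 was 0.021 without WT library 3, Rsad2 -0.0052 and Trim30a -0.024 without WT library 2, Oas3 -0.54 without KO library 2 and Lgals3bp -0.097 without KO library 3. Ddx58, Parp9 and Dtx3l, near 0 with all libraries, had ranges of -0.39 to 1.30, -0.45 to 1.17 and -0.29 to 0.69 without single libraries. The causes were not tested.

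Deviations of same-numbered KO and WT libraries correlated at -0.12 to 0.42, and not every library correlated best with its own number. So few libraries cannot tell whether the replicate numbers pair the samples. With the replicate block, 0 of the 35 were called at day 7 (median 1.65; 0.129% of all genes) and at day 14 (2.04%), and 6 rose over time in WT (12.3%).

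Over all genes, 11 were called at day 7, against 512 with DESeq2 and 5075 with limma-voom, and 19 with the offset. At day 14 it was 165, against 993, 1959, 461 with the offset, 79 with the run term and 0 with only the compared groups. The interaction had 10, against 163, 479, 61 and 1, and has no fit with only the compared groups. Over time, 1792 in KO stood against 2719 with limma-voom, 2881 with the offset and 370 with the run term, and 2375 in WT against 4609 and 3609. SEs of the group at day 7 were 0.30 to 1.53, widest for Ifi44 and Ifit3b, which had few reads in WT.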
